A study of Homo sapiens with 16 samples.

Results

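The CDKN2A and CDKN2B locus on the short arm of human chromosome 9 was examined for open chromatin in 16 ATAC-seq libraries. The members were the 2 genes CDKN2A and CDKN2B, and a peak belonged to a gene when its summit lay in the gene body or within 10 kb of either end. The joint window was chr9:21957752-22019313 (hg38, counted from 1), 61562 bp long. It held 16 of the 355447 regions obtained by merging the peaks of all libraries, and 14 of the 299052 regions called in at least 2 libraries.

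CDKN2A encodes 2 unrelated proteins from alternative first exons. INK4A inhibits the cyclin D-dependent kinases CDK4 and CDK6 and keeps the RB protein active, and ARF binds and restrains the ubiquitin ligase MDM2. CDKN2B encodes a second INK4 kinase inhibitor, INK4B, which is induced by TGF-beta, and CDKN2B-AS1 (ANRIL) is a long noncoding RNA read in the opposite direction across CDKN2B. In proliferating fibroblasts Polycomb complexes repress these genes, and their induction is a hallmark of senescence driven by an oncogene.

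The cells were IMR90, a human lung fibroblast line, infected with a retrovirus for a truncated B-RAF fused to the hormone-binding domain of the estrogen receptor, which 4-hydroxytamoxifen (4-OHT) switches on. All 4 groups had 4 libraries each: Raf-active cells in hypoxia, Raf-inactive cells in hypoxia, Raf-active cells in normoxia and Raf-inactive cells in normoxia. Hypoxia was 0.5% O2, and CO2 was 5% in all 4 groups. The oxygen level of normoxia, the length of either treatment and what the Raf-inactive cells received in place of 4-OHT are not given in the sources used here. Each library was made from 50000 nuclei. Nothing in the labels tells whether the replicates were separate cultures. The p-values below thus cover the spread among these libraries alone, and that spread may be technical.

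The lists held 169287 to 206757 distinct peaks per library. Background pileup, the read coverage expected away from peaks and a stand-in for depth, averaged 7.32 ± 0.752 in Raf-active hypoxia, 4.79 ± 0.191 in Raf-inactive hypoxia, 6.74 ± 0.453 in Raf-active normoxia and 3.23 ± 0.241 in Raf-inactive normoxia (SD, n = 4 each). Raf-active libraries were therefore the deeper ones in both oxygen states. A deeper library can call weaker peaks, so the comparisons of CDKN2A and CDKN2B and of the regions in the window were also computed at matched depth. Of 12 fibroblast marker genes, 10 had a peak at an end of the gene in all 16 libraries, THY1 had one in none, and COL3A1 in 1, 1, 1 and 4 libraries of the groups in the order above. Markers of other cell types had such a peak in all libraries for 3 of 7 epithelial, 2 of 6 endothelial and 3 of 6 blood genes, while PTPRC and LYZ had none in any library. TIE1, an endothelial receptor gene, had one in every Raf-active and in no Raf-inactive library, and its part in the results was not tested.

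The RefSeq promoter table (GRCh38.p14) lists 4 transcription starts for these genes, and the 300 bases around each are printed because each start was under a peak in every library. They run 5′ to 3′ on the strand of the gene, with 250 bases before the start and 50 after it. The windows are chr9:21974808-21975107 (minus strand) for the INK4A start, chr9:21994541-21994840 (plus strand) for CDKN2B-AS1, chr9:21995275-21995574 (minus strand) for the ARF start and chr9:22009256-22009555 (minus strand) for CDKN2B. Capitals mark each match to the core HIF motif, ACGTG or GCGTG on either strand.
CDKN2A downstream start (INK4A): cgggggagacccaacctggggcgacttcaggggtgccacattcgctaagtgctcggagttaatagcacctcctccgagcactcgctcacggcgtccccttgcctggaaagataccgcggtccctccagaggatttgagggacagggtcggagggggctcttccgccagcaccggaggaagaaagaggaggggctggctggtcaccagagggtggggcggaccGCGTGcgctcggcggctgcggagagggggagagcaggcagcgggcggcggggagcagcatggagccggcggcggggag
CDKN2B-AS1: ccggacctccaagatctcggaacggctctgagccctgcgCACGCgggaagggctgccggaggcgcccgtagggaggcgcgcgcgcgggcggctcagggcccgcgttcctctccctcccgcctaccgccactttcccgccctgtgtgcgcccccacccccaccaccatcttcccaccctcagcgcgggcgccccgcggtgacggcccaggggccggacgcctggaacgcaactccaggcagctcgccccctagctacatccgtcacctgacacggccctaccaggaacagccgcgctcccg
CDKN2A upstream start (ARF): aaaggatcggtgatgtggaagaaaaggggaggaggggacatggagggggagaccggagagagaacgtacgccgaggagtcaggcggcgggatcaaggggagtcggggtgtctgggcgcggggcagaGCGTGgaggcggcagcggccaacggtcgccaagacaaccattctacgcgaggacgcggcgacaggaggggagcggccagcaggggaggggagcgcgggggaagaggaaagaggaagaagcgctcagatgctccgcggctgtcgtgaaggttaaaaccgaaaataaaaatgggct
CDKN2B: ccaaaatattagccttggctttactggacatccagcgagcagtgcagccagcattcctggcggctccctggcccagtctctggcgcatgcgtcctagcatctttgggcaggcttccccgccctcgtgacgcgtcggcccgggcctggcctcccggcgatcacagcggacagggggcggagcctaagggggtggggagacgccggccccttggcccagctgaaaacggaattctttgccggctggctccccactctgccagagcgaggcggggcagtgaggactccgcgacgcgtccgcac

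All 4 windows were rich in CpG dinucleotides, the ratio of observed to expected CpG being 0.764 at the INK4A start, 0.916 at CDKN2B-AS1, 1.13 at the ARF start and 0.736 at CDKN2B. The median over 35116 promoters was 0.579. Their GC content was 69.0%, 74.0%, 63.3% and 67.3% in the same order, against a median of 58.7%. The HIF core, the letters bound by hypoxia-inducible factors, occurred 1 time at each of the INK4A, CDKN2B-AS1 and ARF starts and was not in the CDKN2B window. It was found in 48.4% of all promoters. None of the 4 windows held TGANTCA (AP-1), CCGGAA (ETS), TTGCNNAA (C/EBP) or the CTCF core motif, searched on both strands. These occurred in 7.71%, 17.2%, 10.5% and 2.41% of all promoters, in that order.

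All 4 start sites lay under a called peak in 16 of 16 libraries, whatever the Raf or oxygen state, and each of the printed windows held a summit in all 16. The starts fell in 3 merged regions, because the ARF and CDKN2B-AS1 starts, on opposite strands of overlapping gene bodies, shared the region chr9:21994160-21996107. The INK4A start lay in chr9:21974318-21975922, with a median summit 350 bp upstream of the start. The CDKN2B start lay in chr9:22008584-22009768, with a median summit 236 bp inside the gene.

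The authors' fold enrichment at the summit, a ratio over local background that depends on the depth of a library, was higher at the CDKN2B start than at the other starts in every library. There it was 15.0, 17.0, 16.2 and 15.0 in Raf-active hypoxia, 16.4, 17.6, 15.2 and 14.6 in Raf-inactive hypoxia, and 15.6, 13.0, 17.3 and 16.8 in Raf-active normoxia. The 4 Raf-inactive normoxia libraries had 19.2, 20.8, 19.1 and 20.0. Ranked by -log10 p within its own list, this peak stood in the top 12.2% to 15.9% in Raf-active hypoxia, 3.28% to 7.08% in Raf-inactive hypoxia, 5.93% to 15.0% in Raf-active normoxia and 0.845% to 1.71% in Raf-inactive normoxia. The region of the ARF and CDKN2B-AS1 starts had folds of 8.29 to 10.8, 7.19 to 8.22, 8.91 to 11.2 and 7.92 to 9.14, with Raf-active hypoxia first, then Raf-inactive hypoxia, Raf-active normoxia and Raf-inactive normoxia. The INK4A start had 7.33 to 9.22 in Raf-active hypoxia, 9.95 to 11.6 in Raf-inactive hypoxia, 6.87 to 7.17 in Raf-active normoxia and 8.68 to 10.7 in Raf-inactive normoxia. Because folds and ranks of different lists are not on one scale, no difference between groups is read from them.

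What varied was the number of peaks between and beyond the starts. In the joint window the peaks in regions without a start averaged 6.25 ± 0.957 in Raf-active hypoxia, 3.5 ± 0.577 in Raf-inactive hypoxia, 11.2 ± 1.71 in Raf-active normoxia and 3.25 ± 0.5 in Raf-inactive normoxia (SD, n = 4 each). Peaks in the regions that hold a start averaged 3.75 ± 0.5, 3.75 ± 0.5, 5.25 ± 0.5 and 3.75 ± 0.5 in the same order. The higher number at starts in Raf-active normoxia came from regions that were split into more than 1 peak, such as the ARF region with 7 peaks in the 4 libraries of that group. Splitting also added to the peaks without a start. The region chr9:21965039-21966312, called in all 16 libraries, held 9 peaks in Raf-active hypoxia and 4 in Raf-inactive hypoxia.

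**Figure D1:**
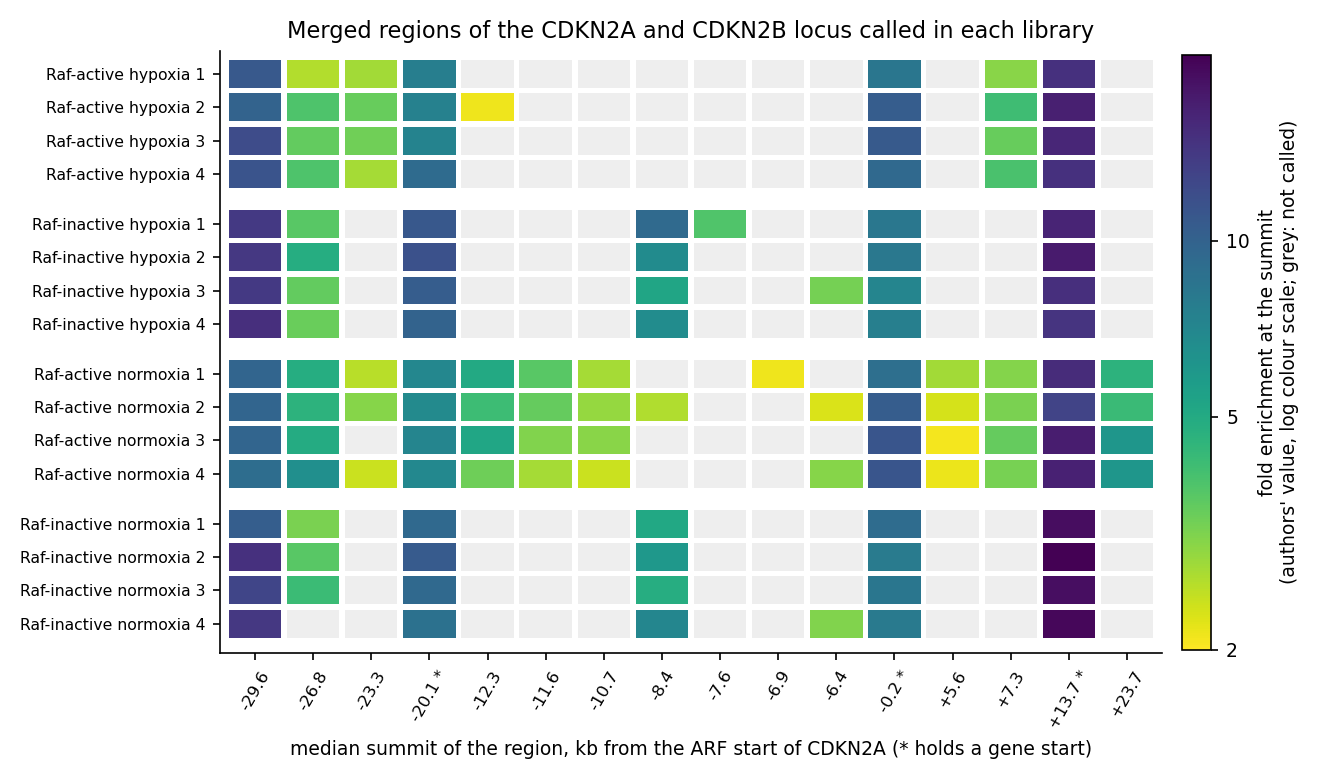
The 16 merged regions of the locus are columns, placed in order by the distance of their median summit from the ARF start in kb, and the 16 libraries are lines of cells grouped by condition. Colour gives the authors' fold enrichment at the summit on a log scale and grey means not called. The 3 columns with a start, marked by a star, and the column at the left edge are filled in all 16 libraries. There are 4 columns filled in all of the Raf-active normoxia libraries and nowhere else.

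With Raf active in normoxia the CDKN2A window, chr9:21957752-22005324, held more peaks than in any other group. It had 14, 15, 12 and 15 distinct peaks in Raf-active normoxia, against 5, 6, 5 and 7 in Raf-inactive normoxia. The groups did not overlap, but the share of all loci without overlap is not given here. After scaling of the libraries to the same total over all loci, the level was 12.6 ± 0.885 peaks in Raf-active and 6.2 ± 0.991 peaks in Raf-inactive normoxia (SD, n = 4 each). The difference in log2(scaled peaks + 1) was 0.92 ± 0.12 (SE), with a limma adjusted p of 3.21e-06 over 15140 loci.

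The CDKN2B window, chr9:21992903-22019313, moved the same way. It had 8, 7, 7 and 9 peaks in Raf-active normoxia, against 3, 2, 2 and 2 in Raf-inactive normoxia, again without overlap. In the Raf-inactive libraries every peak of this window was in the region of the CDKN2B start or in that of the ARF and CDKN2B-AS1 starts, which lies within 10 kb of the CDKN2B gene end. The log2 difference was 1.23 ± 0.1 (SE; limma adjusted p 2.72e-08), the 325th highest of the 15140 loci, or the top 2.15%, while that of CDKN2A was the 906th highest, or the top 5.98%. Calls were common in this comparison, at 63.1% of all loci, 37.1% higher and 25.9% lower, and the median change of all loci was 0.1. The windows share 12422 bp and 3 of the 16 regions, so the 2 genes are not independent measurements.

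At matched depth the change was 0.72 for CDKN2A and 1.17 for CDKN2B, and both were still called. Counted as base pairs covered it was 0.61 for CDKN2A and 0.4 for CDKN2B, with 50 kb flanks 0.53 and 0.76, and when only peaks enriched 5-fold or more were kept the CDKN2A change was 0.01 (limma adjusted p 0.88) and CDKN2B had too few peaks to be tested.

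With Raf active in hypoxia the rise was smaller at CDKN2B and did not pass the test at CDKN2A. CDKN2A had 10, 8, 8 and 10 peaks in Raf-active hypoxia, against 7, 5, 7 and 6 in Raf-inactive hypoxia. As listed these did not overlap, but as scaled levels they did, at 7.28 to 9.38 in Raf-active and 5.59 to 7.99 in Raf-inactive hypoxia. The log2 difference was 0.23 ± 0.12 (SE; limma adjusted p 0.0951), which was not called. Part of the CDKN2A peaks came from chr9:21965039-21966312, a region present in every library. It was split into 9 peaks over the Raf-active hypoxia libraries and 4 over the Raf-inactive hypoxia ones. CDKN2B had 4, 3, 4 and 4 peaks in Raf-active hypoxia, against 2 in each Raf-inactive hypoxia library. Its scaled level was 3.49 ± 0.432 in Raf-active and 2.24 ± 0.0274 in Raf-inactive hypoxia (SD, n = 4 each), and the log2 difference of 0.46 ± 0.1 (SE; limma adjusted p 0.000936) was called. CDKN2B entered this fit through its level in Raf-active normoxia, a group not compared here. In a fit of the 2 hypoxia groups alone its mean was under 3 and it had no value. With no filter on the mean the difference was 0.46 (limma adjusted p 0.00124). Of all loci, 60.1% were called for Raf in hypoxia, 33.5% higher and 26.6% lower, with a median change of 0.05. At least as large a rise as that of CDKN2B was seen in 21.0% of loci.

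Without scaling the CDKN2A difference was 0.47 (limma adjusted p 0.00287), at matched depth 0.01, by base pairs covered -0.01, and with only peaks enriched 5-fold or more -0.32 (limma adjusted p 0.00338). The CDKN2B difference was 0.42 at matched depth, 0.18 by base pairs covered and 0.12 with 50 kb flanks, where it was not called (limma adjusted p 0.122).

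**Figure D2:**
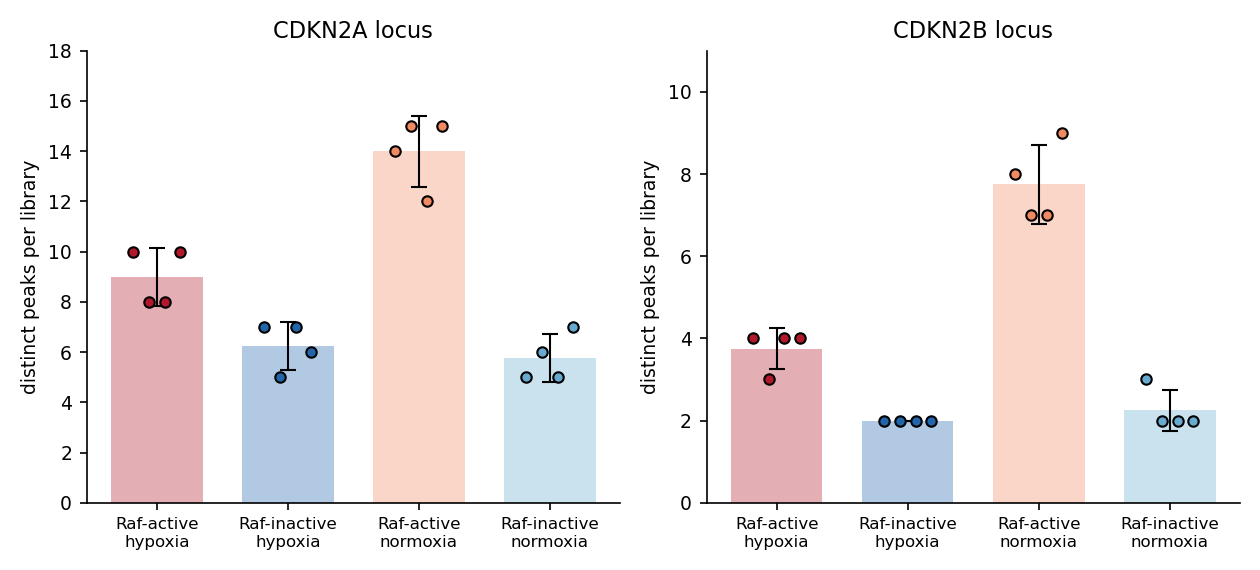
Distinct peaks per library, as listed, in the CDKN2A window on the left and the CDKN2B window on the right, with 1 point per library, bars at the mean and whiskers of 1 SD (n = 4 per group). The Raf-active normoxia libraries, with 12 to 15 and 7 to 9 peaks, lie above all others, and the Raf-active hypoxia libraries, with 8 to 10 and 3 to 4, lie between them and the Raf-inactive groups, except that 1 Raf-inactive normoxia library also had 3 CDKN2B peaks.

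Hypoxia went with fewer peaks at both genes when Raf was active. The CDKN2A level was 8.39 ± 1.11 scaled peaks in Raf-active hypoxia and 12.6 ± 0.885 in Raf-active normoxia (SD, n = 4 each), a log2 difference of -0.54 ± 0.12 (SE; limma adjusted p 0.00244). The CDKN2B level was 3.49 ± 0.432 in Raf-active hypoxia and 6.98 ± 0.763 in Raf-active normoxia, a log2 difference of -0.83 ± 0.1 (SE; limma adjusted p 2.24e-05). At neither gene did the libraries of the groups overlap. The same held for the neighbouring gene MTAP, which was not called (-0.2, limma adjusted p 0.0929), and the share of all loci without overlap is not given here.

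Of all loci, 27.1% were called in this comparison, 13.0% higher and 14.0% lower, with a median change of -0.02. The fall of CDKN2B was the 139th largest of 15140, within the lowest 0.918%, and that of CDKN2A the 668th, within the lowest 4.41%. Mean background pileup was 7.32 ± 0.752 in Raf-active hypoxia and 6.74 ± 0.453 in Raf-active normoxia, and the part of depth in the fall was not tested. At matched depth the differences were -0.48 for CDKN2A and -0.8 for CDKN2B. By base pairs covered they were -0.31 and -0.2, with 50 kb flanks -0.37 and -0.45, and with only peaks enriched 5-fold or more -0.25 for CDKN2A, each still called.

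In Raf-inactive cells no difference with hypoxia passed the test at either gene. CDKN2A had 7, 5, 7 and 6 peaks in Raf-inactive hypoxia, against 5, 6, 5 and 7 in Raf-inactive normoxia, and a log2 difference in scaled peaks of 0.15 ± 0.12 (SE; limma adjusted p 0.423). CDKN2B had 2 peaks in each hypoxia library, against 3, 2, 2 and 2 in normoxia, and a difference of -0.07 ± 0.1 (SE; limma adjusted p 0.728). Of all loci, 12.8% were called, 6.0% higher and 6.76% lower, with a median change that rounded to 0. By base pairs covered CDKN2A was called higher in hypoxia, by 0.31 (limma adjusted p 0.00498), with 4.84 ± 0.348 kb covered in Raf-inactive hypoxia and 3.73 ± 0.568 kb in Raf-inactive normoxia (SD, n = 4 each). The CDKN2B difference turned to 0.03 by base pairs, to 0.2 with 50 kb flanks, and to 0.04 without replicate 1 of Raf-inactive normoxia, none of which was called.

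The change with Raf itself differed between the oxygen states at both genes. Subtracting the Raf change in normoxia from the one in hypoxia gave -0.69 ± 0.16 for CDKN2A (SE; limma adjusted p 0.00852) and -0.76 ± 0.15 for CDKN2B (SE; limma adjusted p 0.00206). Of all loci, 18.3% were called for this difference, 9.15% with a higher and 9.1% with a lower Raf change in hypoxia, with a median of -0.01, and 3.16% of loci had a difference at least as far below 0 as CDKN2A and 2.21% as CDKN2B. The differences were -0.71 and -0.75 at matched depth. That of CDKN2A was -0.34 with only peaks enriched 5-fold or more (limma adjusted p 0.0503) and -0.43 with 50 kb flanks, and that of CDKN2B was -0.23 by base pairs covered.

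**Figure D3:**
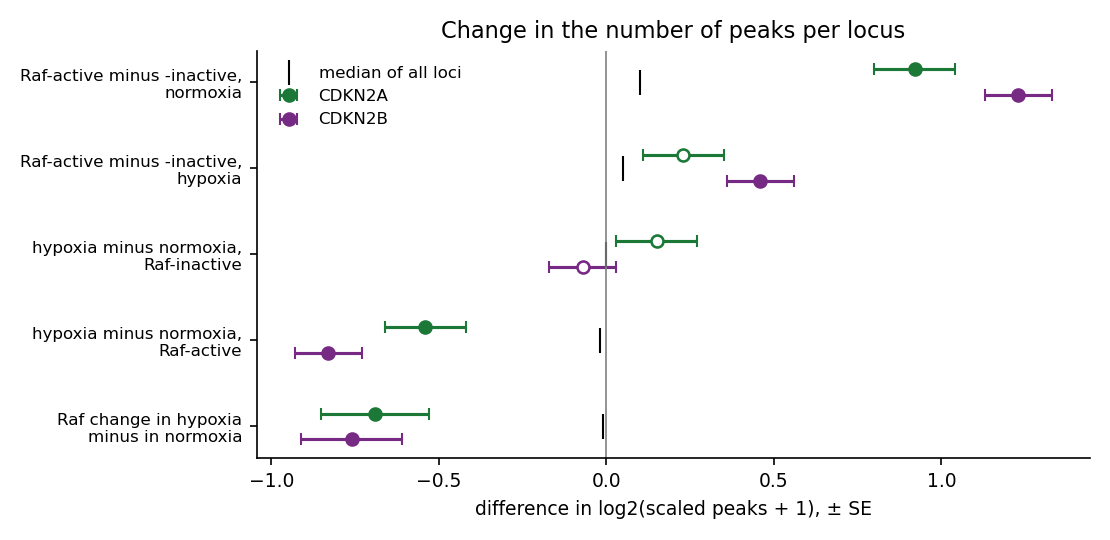
Differences in log2(scaled peaks + 1) for CDKN2A and CDKN2B in the 4 comparisons and their interaction, with whiskers of 1 SE, where filled points passed a limma adjusted p of 0.05 and open points did not. Black ticks give the median of all 15140 loci, between -0.02 and 0.1. Both genes lie right of 0.9 with Raf in normoxia and left of -0.5 with hypoxia in Raf-active cells.

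Single regions showed which parts of the locus these counts came from, though a region split into several peaks counts more than 1 time. A region was taken as gained when all 4 libraries of the first-named group and none of the other had a peak in it, and as lost in the reverse case. The smallest two-sided p that Fisher's exact test gives for 1 region is 0.0286, and the smallest p adjusted over all regions was 0.115 for Raf in normoxia, 0.126 for Raf in hypoxia, 0.926 for hypoxia in Raf-inactive and 0.423 for hypoxia in Raf-active cells. No single region therefore passed a test, and presence is given as a description. Raf in normoxia gained 6 of the 14 regions called in at least 2 libraries and lost 0, where 14.1% of such regions were gained and 10.6% lost across the genome. Raf in hypoxia gained 2 and lost 1, against 13.8% and 8.82%. Hypoxia gained 0 and lost 4 in Raf-active cells, against 3.69% and 3.06%, and gained and lost 0 in Raf-inactive cells, against 1.5% and 1.59%.

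A cluster of 3 regions between the INK4A and ARF starts was called in all 4 Raf-active normoxia libraries. The first, chr9:21982733-21983185, lay 8167 bp upstream of the INK4A start and had folds of 5.07, 4.17, 5.19 and 3.34 there. Of the other libraries, 1 Raf-active hypoxia library called it, at a fold of 2.12 and 99.9% of the way down its list by -log10 p, and no Raf-inactive library did. The second, chr9:21983409-21984087, had folds of 3.67, 3.47, 3.11 and 2.73 in Raf-active normoxia and was called in no other library. The third, chr9:21984280-21984764, had folds of 2.74, 2.89, 3.04 and 2.42 and was likewise called in no other group. By -log10 p the first stood 62.2% to 85.2% of the way down the Raf-active normoxia lists, the second 78.3% to 94.1% and the last 91.3% to 96.9%. At matched depth the first was present in 4 of 4 Raf-active normoxia libraries and in no other.

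Near the end of CDKN2B a broad region, chr9:22001697-22004090, was called in all Raf-active and no Raf-inactive libraries. Its folds were 3.03, 4.15, 3.44 and 3.93 in Raf-active hypoxia and 3.08, 3.19, 3.48 and 3.23 in Raf-active normoxia. It covers the 3′ end of the CDKN2B gene body at 22002903 and is 2394 bp long, the longest region of the window. It was called as 7 separate peaks over the 4 Raf-active hypoxia libraries and as 10 over the 4 Raf-active normoxia libraries, so it counts more than 1 time in the peak numbers of both genes. At matched depth it was present in 4 of 4 libraries of both Raf-active groups and in 0 of 4 of both Raf-inactive groups.

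Another Raf-active region, chr9:21971658-21972241, lay inside CDKN2A 2858 bp downstream of the INK4A start. It was called in 4 of 4 Raf-active hypoxia libraries, with folds of 2.77, 3.46, 3.33 and 2.73, and in 3 of 4 Raf-active normoxia libraries, with folds of 2.57, 3.07 and 2.42. No Raf-inactive library called it. At matched depth it was present in 3 Raf-active hypoxia libraries and in 1 Raf-active normoxia library.

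On the other side of CDKN2B, chr9:22018929-22019177 was called in all Raf-active normoxia libraries at folds of 4.61, 4.26, 6.07 and 6.05 and in no other library. It lay 9754 bp upstream of the CDKN2B start and within 254 bp of the window's edge, so a window drawn a little narrower would leave it out. It was present in 4 of 4 Raf-active normoxia libraries at matched depth. The fourth region called in that group alone, chr9:22000791-22001052, 5615 bp upstream of the ARF start, had folds of 2.77, 2.32, 2.09 and 2.14 and was present in 2 of 4 libraries at matched depth.

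Only chr9:21986791-21987500, between the INK4A and ARF starts, had the opposite pattern. It was called in 4 of 4 Raf-inactive libraries of either oxygen state, with folds of 9.38, 6.81, 5.27 and 6.73 in hypoxia and 5.12, 5.98, 4.82 and 7.11 in normoxia. No Raf-active hypoxia library called it, and 1 Raf-active normoxia library, replicate 2, did so at a fold of 2.65. At matched depth the region was present in 0 of 4 Raf-active hypoxia, 4 of 4 Raf-inactive hypoxia, 0 of 4 Raf-active normoxia and 4 of 4 Raf-inactive normoxia libraries. The part of depth in this pattern was not tested.

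At matched depth with -log10 p of at least 5, Raf in normoxia gained 3 regions and lost 1, Raf in hypoxia gained 1 and lost 1, and hypoxia in Raf-active cells lost 2. The shares over all regions at this setting are not given here, so these counts are not set against the genome. The regions of chr9:21983409-21984087 and chr9:21984280-21984764, in the cluster between the INK4A and ARF starts, were present in 1 and 0 of the 4 Raf-active normoxia libraries under that setting. With a lower threshold of 2.86, chosen after seeing the data, both were present in 4 of 4. With only peaks enriched 5-fold or more no region of the locus was gained in either Raf comparison or lost with hypoxia in Raf-active cells.

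The remaining regions of the window were called in nearly all libraries or in few. A region beyond the 3′ end of CDKN2A, chr9:21965039-21966312, outside the gene bodies of the locus, was called in all 16 libraries at folds of 9.12 to 15.2. It was called as 9 peaks over the 4 Raf-active hypoxia libraries and as 4 over the Raf-inactive hypoxia ones. In Raf-active normoxia it was called as 4 peaks and in Raf-inactive normoxia as 5. The region chr9:21968126-21968914, inside CDKN2A near its 3′ end, was called in 15 of 16, with Raf-inactive normoxia replicate 4 lacking it. Its folds were 2.61 to 3.84 in Raf-active hypoxia and 3.42 to 4.89 in Raf-inactive hypoxia. They were 4.62 to 6.56 in Raf-active normoxia and 3.21 to 4.22 in Raf-inactive normoxia. The other 3 regions, between 21987613 and 21989166, were called in 1, 1 and 4 libraries, with folds of 2.12 to 3.82.

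Within 100 kb outside the window 42 regions were called, of which 12 were in all 16 libraries, 2 were in 1 library and 26 lay inside CDKN2B-AS1. With Raf in normoxia 5 of the 42 were gained and 3 lost, against 14.1% gained and 10.6% lost of the regions called in at least 2 libraries across the genome, and with Raf in hypoxia 2 were gained and 5 lost, against 13.8% and 8.82%. With hypoxia in Raf-active cells 1 was gained and 1 lost, against 3.69% and 3.06%, and in Raf-inactive cells 2 were gained and 1 lost, against 1.5% and 1.59%. None of the 42 was called in all Raf-active normoxia libraries and nowhere else, a pattern that 4 regions of the window had. No share of this pattern over all regions of the genome is given here, and the difference was not tested. At matched depth chr9:22018929-22019177 kept 4 of 4 Raf-active normoxia libraries, and the others of these regions kept 1, 0 and 2. The nearest region on the CDKN2B-AS1 side, chr9:22026695-22027185, 7605 bp outside, was called in 1 of 4 Raf-active hypoxia, 0 of 4 Raf-inactive hypoxia, 4 of 4 Raf-active normoxia and 0 of 4 Raf-inactive normoxia libraries. A region at chr9:22068464-22069134 was called in all 8 Raf-active and no Raf-inactive libraries. On the MTAP side, chr9:21948873-21949428 was called in all 8 Raf-inactive and no Raf-active libraries.

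Over its whole gene body and 10 kb flanks, CDKN2B-AS1 had 22.0 ± 2.83 peaks in Raf-active hypoxia, 20.5 ± 1.29 in Raf-inactive hypoxia, 31.0 ± 1.63 in Raf-active normoxia and 20.0 ± 0.816 in Raf-inactive normoxia (SD, n = 4 each). As a noncoding gene it was outside the fit, and many of these peaks are shared with CDKN2A and CDKN2B. The neighbour MTAP, which encodes an enzyme of methionine salvage, was called in no comparison. It had 16.8 ± 1.16 scaled peaks in Raf-active hypoxia, 19.4 ± 1.43 in Raf-inactive hypoxia, 19.4 ± 2.25 in Raf-active normoxia and 18.9 ± 0.775 in Raf-inactive normoxia (SD, n = 4 each). DMRTA1, a transcription factor gene farther along the chromosome, had too few peaks to be fitted, with scaled means of 2.33, 2.52, 4.07 and 1.89 in the same order.

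The loci whose peak numbers most resembled CDKN2A over the 16 libraries were ARMC9, AMPD3 and POLR2A, at Pearson r of 0.928, 0.926 and 0.924. Those most like CDKN2B were FER1L6, TAF7 and HLA-DMA, at 0.961, 0.957 and 0.953. CDKN2A and CDKN2B themselves reached 0.87. These values describe the same libraries with the same depths, and the named loci were picked as the closest among 15134 compared for CDKN2A and 15135 for CDKN2B. AMPD3, an adenosine monophosphate deaminase gene, had 7.46 scaled peaks in Raf-active hypoxia, 6.74 in Raf-inactive hypoxia, 12.6 in Raf-active normoxia and 6.47 in Raf-inactive normoxia.

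Genes that act with INK4A, INK4B and ARF moved in both directions. Of 35 genes of the pathway and its known regulators, 33 had enough peaks to be tested. With Raf in normoxia 8 rose and 6 fell, where 37.1% of all loci rose and 25.9% fell, and the median change was 0.07 against 0.1 for all loci. The number of peaks fell at all 3 genes of the pocket proteins, which are targets of the cyclin D kinases. RB1 had 6.73 ± 2.28 scaled peaks in Raf-active and 17.0 ± 1.64 in Raf-inactive normoxia (SD, n = 4 each), a log2 difference of -1.26, RBL1 changed by -0.77 and RBL2 by -0.69. E2F3, a transcription factor held by RB, fell by 0.84, and SMARCA4, the ATPase of the SWI/SNF complex that opposes Polycomb at this locus, rose by 0.98.

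With Raf in hypoxia 4 rose and 11 fell, against 33.5% and 26.6% of all loci, with a median of -0.06 against 0.05 for all loci. RBL2 had 1.62 ± 0.858 scaled peaks in Raf-active and 5.04 ± 0.605 in Raf-inactive hypoxia (SD, n = 4 each), a log2 difference of -1.26, and RB1 changed by -1.44, E2F3 by -0.68 and the kinase inhibitor gene CDKN2C by -0.58. The pocket protein gene RBL1 went the other way with Raf in hypoxia, by 0.33, and was not called. With hypoxia in Raf-active cells 1 rose and 7 fell, against 13.0% and 14.0% of all loci, with a median of -0.1 against -0.02. RBL1 had 10.5 ± 1.18 scaled peaks in Raf-active hypoxia and 5.84 ± 1.46 in Raf-active normoxia (SD, n = 4 each), a difference of 0.77, whereas CDK4 changed by -0.51 and E2F3 by -0.35. With hypoxia in Raf-inactive cells 1 rose and 2 fell, against 6.0% and 6.76% of all loci: BMI1, a Polycomb subunit gene, by 0.31, and E2F3 and the H3K27 demethylase gene KDM6B by -0.51 and -0.4. The Raf change differed between the oxygen states for 4 of the 33, against 18.3% of all loci, among them RBL1 at 1.09, CDK4 at -0.63 and CCND3 at -0.4.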

How the data were processed

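Open chromatin was measured by ATAC-seq in 16 libraries. Per the submitters' processing notes, MACS2, Bowtie2, cutadapt, Picard, SAMtools, bedtools, deepTools and FastQC were run on hg38; versions, settings and blacklists are not given in the sources used here. The authors deposited 1 narrowPeak list per library, unpooled. Each deposited line holds a score, a ratio (fold enrichment of the summit over local background) and 2 values of the authors' caller, -log10 q and -log10 p; these were used only to describe, rank and filter peaks within a list. No read totals were used, so depth is the background pileup recovered from the listed fold and p, a recovery with no independent check. A peak that is absent was not called at that depth.

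Lines of the same interval were merged to 1 peak, on chromosomes 1 to 22 and X. Peaks were counted by summit in each of 19974 protein-coding loci (gene body plus 10 kb, RefSeq GRCh38.p14) and scaled to the same total. Then log2(scaled peaks + 1) was fitted for the 15140 loci with a mean of at least 3 in limma 3.58.1 (R 4.3.3) with 4 group means. Both genes passed this filter. CDKN2B passed through its high level in Raf-active normoxia, 6.98, its means in the 2 Raf-inactive groups being 2.24 in hypoxia and 2.43 in normoxia. Its calls are thus not independent of the filter. Calls were made at a Benjamini-Hochberg adjusted p below 0.05. The fit was also run on simulated continuous values, with an outcome not given here. Such values do not cover small whole counts like those of CDKN2B. The pseudocount understates changes of loci with few peaks. Matched depth scaled the recovered pileups to the lowest background, 3.01, and kept a -log10 p of at least 5. Python 3.11.15 with pandas 2.3.3, numpy 2.4.6 and scipy 1.17.1 was used for the rest.

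INK4A and ARF were assigned to the downstream and upstream CDKN2A starts. Marker peaks lay within 1 kb of a listed start or, where none was listed, of either gene end. Named regions had peaks in at least 3 of 4 libraries of a group, which held for 13 of 16. Named pathway genes were the up to 4 called genes per comparison with the largest change and no overlap between groups. RBL2 for Raf in normoxia, RBL1 for Raf in hypoxia and the genes of the interaction were added after their values were seen. The values of 1 gene of the list are not reported here. Likeness was ranked outside 1 Mb. No genome sequence was used, so motifs were searched in promoter windows only. The members, lists and tests were chosen with earlier results of these data known.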

Additional observations from a re-analysis of the deposited data

Results flagged for a closer look

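At both genes the change with Raf differed between the oxygen states by a test of the difference itself, at -0.69 for CDKN2A and -0.76 for CDKN2B (log2 scaled peaks, hypoxia minus normoxia, limma).

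In 3 of 16 sets of 4 libraries 1 library lay far from the rest, with a gap over the range above Dixon's 95% critical value. For normally distributed values chance does this in about 1 of 20 sets. That rate does not hold for small whole counts such as those of CDKN2B, where 1 library differing by 1 peak from 3 equal ones is enough. Raf-active hypoxia replicate 2 had 2.85 scaled CDKN2B peaks, having 3 where the others had 4. Raf-inactive normoxia replicate 1 had 3.24, having 3 where the others had 2. Raf-active normoxia replicate 3 had 7393 bp covered in the joint window, against 8947, 9084 and 8951 in the other replicates of that group, and it was also the library of that group with the lowest background pileup, 6.09. The part of depth in this was not tested.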

How the results depend on the processing

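Of 401 values recomputed under alternatives, 380 kept their direction and side of the threshold, or their count within 1.5 times. Many of the 380 had little room to move. Among these were fits without a library of a group not compared, and settings that alter only the spread or the set of loci tested. The values outside the 380 follow, and the cause was not tested. With only peaks enriched 5-fold or more CDKN2A was 0.01 for Raf in normoxia, -0.32 for Raf in hypoxia and -0.34 for the interaction, and the locus had 0 gained regions with Raf in normoxia, 0 with Raf in hypoxia and 0 lost with hypoxia in Raf-active cells. CDKN2B had no value there, nor in fits of only the 2 groups compared for Raf in hypoxia and hypoxia in Raf-inactive cells, its mean being under 3. By base pairs covered CDKN2A was -0.01 for Raf in hypoxia and 0.31 for hypoxia in Raf-inactive cells, where CDKN2B was 0.03. With 50 kb flanks CDKN2B was 0.12 for Raf in hypoxia and 0.2 for hypoxia in Raf-inactive cells. Without scaling CDKN2A was 0.47 for Raf in hypoxia. At matched depth the gained regions were 3 for Raf in normoxia and 1 for Raf in hypoxia, and 2 were lost with hypoxia in Raf-active cells. With Raf in normoxia 1 region was lost, not 0, at matched depth, at -log10 q of at least 5, and with 3 of 4 against at most 1 of 4. With Raf in hypoxia 0 were lost when a peak had to cover 50% of the region.

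Leaving out each library in turn gave 0.87 to 1.0 and 1.17 to 1.33 for CDKN2A and CDKN2B with Raf in normoxia, 0.14 to 0.29 and 0.43 to 0.54 with Raf in hypoxia, 0.09 to 0.24 and -0.11 to 0.04 with hypoxia in Raf-inactive cells, -0.59 to -0.48 and -0.88 to -0.76 with hypoxia in Raf-active cells, and -0.78 to -0.63 and -0.87 to -0.69 for the interaction, with no call changed. The value of 0.04 came without Raf-inactive normoxia replicate 1. Regions gained and lost were 6 to 7 and 0 to 1 with Raf in normoxia, the 1 without Raf-active normoxia replicate 2, 2 and 1 with Raf in hypoxia, 0 and 0 with hypoxia in Raf-inactive cells, and 0 and 4 to 5 with hypoxia in Raf-active cells.

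Replicate numbers did not pair the libraries: deviations of same-numbered libraries correlated at -0.039 to 0.0173 over 24 pairs, and 3 of 16 libraries correlated best with their own number. With the number as a block the interactions were -0.69 (limma adjusted p 0.0121) and -0.76 (0.00258), and no call changed.

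Over all loci, the share of higher among called loci was 77.7% without scaling and 58.9% with it for Raf in normoxia, 78.6% and 55.7% for Raf in hypoxia, 29.7% and 47.0% for hypoxia in Raf-inactive cells, and 37.8% and 48.1% for hypoxia in Raf-active cells. Without scaling the median change was 0.33 and 0.29 in the Raf comparisons. Called loci numbered 1931 for hypoxia in Raf-inactive cells, but 3546 by base pairs and 1035 from those groups alone. For hypoxia in Raf-active cells they numbered 4101, but 6297 by base pairs and 6259 with 50 kb flanks, and for the interaction 2764, but 4839 by base pairs. Depth limits weak peaks: absence means not called.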
